A study of Mus musculus with 4 samples.

Results

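The antioxidant, glutathione and NRF2 target genes are 40 genes listed by name out of the 55450 genes of the read table. The list sets no limit on measured values, but it was drawn up with earlier results of these data known. They were followed in cultured articular chondrocytes, which had been freed with collagenase from femoral head cartilage of 3 weeks old mice, with 1 library for each of 4 conditions. The wild type library was labelled Wild type with strain C57BL/6, and the study's account of its expression data also calls these chondrocytes wild-type. Its methods, however, call the chondrocytes used for these data Control, and name miR-23a/b clusters flox/flox mice as Control. The labels do not mention floxed alleles for this library. The miR-26a KO library came from miR-26a -/- mice (C57BL/6). The Cart-miR-23clus KO library came from mice with Col2a1-cre and with flox/flox alleles of the miR-23a/b clusters (C57BL/6). There the Col2a1 promoter drives Cre in cartilage, and whether cells of other types in the culture lost the clusters was not measured here. The fourth library came from miR-26a -/- chondrocytes (C57BL6/J) transfected with a miR-26a mimic, a double-stranded RNA with the mature sequence. The treatment text also names a negative control siRNA, and it is not stated if the library of miR-26a KO cells received it, so that transfection and mimic cannot be told apart. The labels do not give the number of mice behind a culture. Each condition had a single library and no replicate, so no difference below has a replicate check. Every interval of a ratio or share is an exact 95% Clopper-Pearson interval on reads that covers counting error only and compares libraries, not conditions.

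NRF2, encoded by Nfe2l2, is a transcription factor that KEAP1 keeps at a low level by presenting it for degradation. When reactive oxygen species or electrophiles modify KEAP1, NRF2 accumulates, binds the antioxidant response element and induces genes for glutathione synthesis, thioredoxin, heme breakdown, iron storage and NADPH supply. In cartilage, oxidative stress is linked to the loss of matrix and to osteoarthritis, and chondrocytes keep both intracellular and secreted antioxidant enzymes. A microRNA lowers mRNAs whose 3′ untranslated region (UTR) pairs with its seed, the bases at positions 2 to 8.

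The mature microRNAs are shown because they define the conditions, with the seed in capitals (RefSeq, GRCm38.p6). miR-23b-3p, also encoded in the clusters, is not shown and was not analysed here.
miR-26a-5p: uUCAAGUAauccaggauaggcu
miR-23a-3p: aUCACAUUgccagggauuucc
miR-27a-3p: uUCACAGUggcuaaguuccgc
miR-27b-3p: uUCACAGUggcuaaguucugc
miR-24-3p: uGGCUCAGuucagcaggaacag
The sense strand given for the mimic was identical to miR-26a-5p. miR-27a-3p and miR-27b-3p have the same seed, and the other 3 seeds differ from it and from each other. Mature microRNAs are not captured by these polyA-primed libraries, and the rows for Mir26a-1, Mir26a-2, Mir23a, Mir27a and Mir23b held 0 reads in every library, so the deletions themselves could not be checked here.

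Of the 40 genes, 34 had at least 80 reads summed over the 4 libraries and entered the comparisons, as did 7558 genes in all. The other 6 were Gclc (64 reads summed), Gsr (79), Mgst1 (37), Gstp1 (24), Mgst3 (22) and Gsta4 (18). The 34 genes were more deeply read than the rest, with a median of 659 summed reads against 250.0 over all genes tested. A gene is called higher or lower below where its ratio of TPM (reads divided by gene length and brought to a common total per library) passed 1.5 in either direction and its interval excluded 1. Depth was similar across libraries, with 1336496 to 1505805 reads on genes. All 12 chondrocyte markers listed had reads in all 4 libraries, among them Col2a1 (5452 to 7062 TPM), Acan (472 to 661 TPM) and Sox9 (463 to 500 TPM). Of the 12, 4 were called lower in miR-26a KO, and 5 lower and 1 higher in Cart-miR-23clus KO against wild type, with Matn1 at 1193 TPM in wild type, 418 in miR-26a KO, 480 in Cart-miR-23clus KO and 203 with the mimic. In TPM the osteoblast marker Col1a2 (8798 to 21110) was above Col2a1 in each library, while Col1a1 (1311 to 6328) was below it. In reads Col1a2 was below Col2a1 in each library, at 7096 to 18746 against 25154 to 35871. TPM divides by gene length, so levels of different genes compare only roughly.

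The 40 genes together took more of the reads in every modified culture than in wild type. Their summed share of reads on genes was 0.945% in wild type (95% interval 0.929 to 0.960%), 1.25% in miR-26a KO (1.23 to 1.26%), 1.57% in Cart-miR-23clus KO (1.55 to 1.59%) and 1.33% in miR-26a KO + mimic (1.31 to 1.35%). Fth1 alone gave 0.364% of wild-type reads, and without it the shares of the other 39 genes were 0.581%, 0.744%, 0.829% and 0.764% in the same order. Wild type was the lowest of the 4 libraries for 21 of the 34 genes (61.8%), against 29.1% of all genes tested. Cart-miR-23clus KO was the highest for 18 of the 34 (52.9%), against 24.5% of all genes tested.

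In miR-26a KO against wild type, 7 of the 34 genes were called higher and 0 lower, where 6.93% of all genes tested were called higher and 4.55% lower. The 7 were Hmox1, Nqo1, Gpx3, Gpx4, Sod3, Slc7a11 and Gstm1. In Cart-miR-23clus KO against wild type, 8 were called higher and 0 lower, against 7.58% and 7.69% of all genes tested. These 8 were Hmox1, Nqo1, Prdx5, Gpx3, Gpx4, Gstm2, Fth1 and G6pdx. Both comparisons use the same wild-type library, so the 4 genes named in both are not independent observations. At a fold of 2 the counts fall to 3 in miR-26a KO and 5 in Cart-miR-23clus KO. Without the genes that have copies or genes of similar sequence, both counts fall to 5. Gpx4 and Gstm1 are then left out of the first, and Gpx4, Gstm2 and Fth1 out of the second.

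Taken as a set that includes the called genes, the 34 genes also had higher ratios to wild type than all genes tested. The median log2 ratio of the 34 genes was 0.29 in miR-26a KO against wild type, with 25 of 34 above a ratio of 1, where the median over all genes tested was 0.04 and 53.9% were above 1. It was 0.35 in Cart-miR-23clus KO against wild type, with 27 of 34 above 1, where the median over all genes tested was -0.02 and 47.8% were above 1. Without the fold limit, the interval lay wholly above 1 for 16 of 34 genes in miR-26a KO (12.7% of all genes tested) and wholly below 1 for 0 (9.05% of all genes tested). In Cart-miR-23clus KO these counts were 18 (12.9% of all genes tested) and 0 (13.6% of all genes tested). Deeper reading narrows an interval, so the higher read numbers of these genes bear on the counts of intervals and of calls, and their part in either was not tested.

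**Figure D1:**
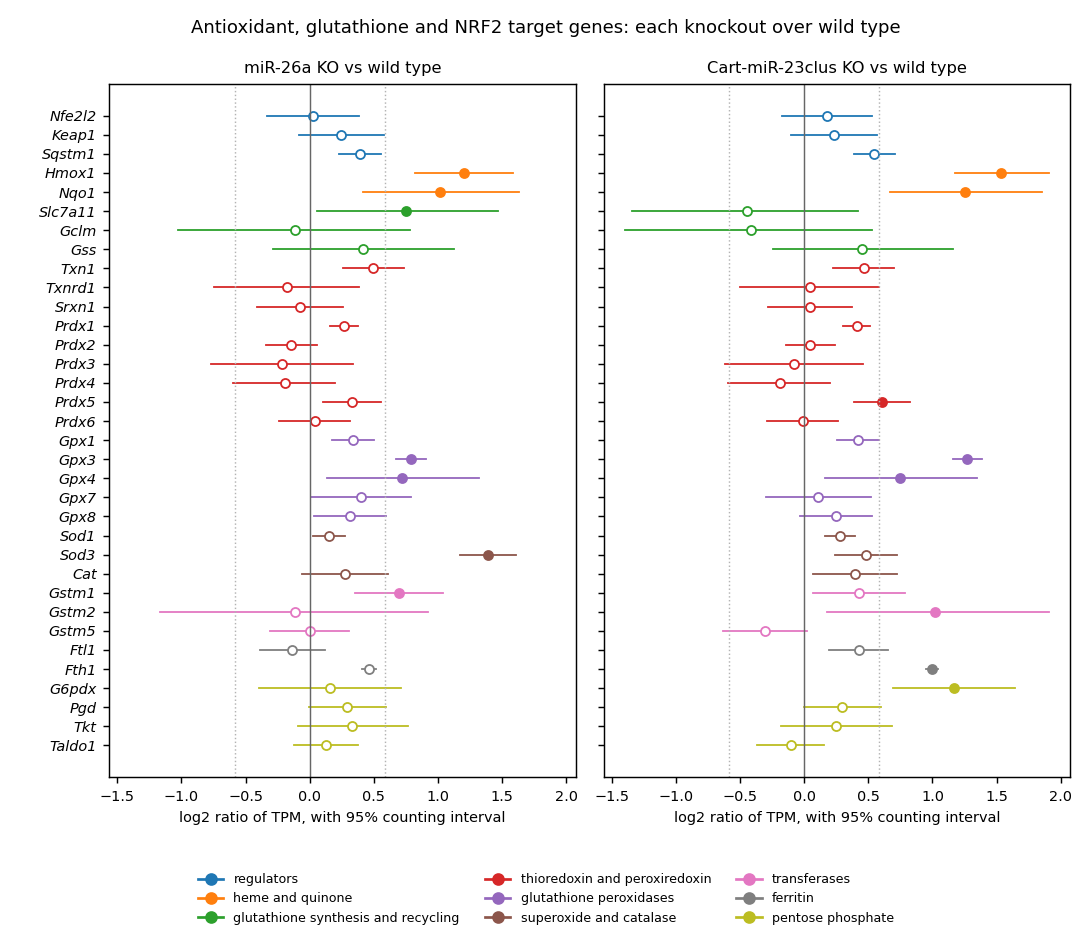
Log2 ratio of TPM of each knockout library over wild type for the 34 genes with at least 80 summed reads, coloured by role. Bars are 95% counting intervals, filled points are genes called higher, and dotted lines mark 1.5-fold. Hmox1, Nqo1 and Gpx3 lie to the right in both panels, Sod3, Slc7a11 and Gstm1 are filled only on the left, and no interval lies wholly below 0.

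**Figure D2:**
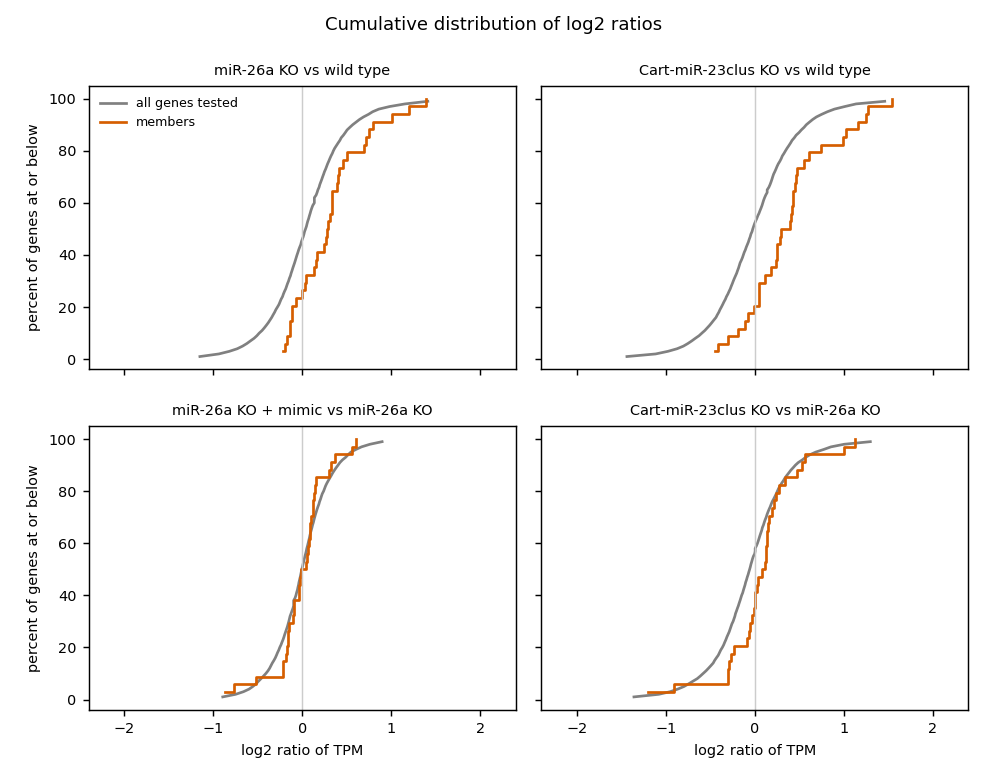
Percent of genes at or below each log2 ratio of TPM, for the 34 genes (orange steps) and for percentiles 1 to 99 of all 7558 genes tested (grey), in each of the 4 comparisons. The orange steps lie to the right of the grey line in both comparisons with wild type (medians 0.29 and 0.35) and close to it in miR-26a KO + mimic against miR-26a KO.

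Of the 3 regulators among the 40 genes, 0 were called in any of the 4 comparisons. With 2.09% to 7.69% of all genes tested called in a direction, a count over 3 genes says little about the group. Nfe2l2 had 53.0 TPM in wild type, 53.9 in miR-26a KO, 60.0 in Cart-miR-23clus KO and 59.5 with the mimic. Its ratio to wild type was 1.02 (0.79 to 1.31) in miR-26a KO and 1.13 (0.89 to 1.44) in Cart-miR-23clus KO, so a mRNA difference of 1.5-fold lies outside both intervals. Keap1 had 45.0, 53.4, 52.8 and 58.0 TPM in wild type, miR-26a KO, Cart-miR-23clus KO and mimic. Sqstm1, which encodes the autophagy receptor p62 that binds KEAP1 and is itself a NRF2 target, had 203, 267, 297 and 291 TPM in the same order. Sqstm1 was higher than wild type in both knockouts with intervals above 1, at 1.32 (1.17 to 1.47) and 1.46 (1.31 to 1.63), yet under the 1.5-fold limit. NRF2 is controlled mainly as a protein, which these libraries do not measure.

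Hmox1 and Nqo1, textbook NRF2 targets, were the role group with the highest median ratio in both knockouts. Hmox1 (chromosome 8, 75093621 to 75100589, GRCm38) encodes heme oxygenase 1, which breaks heme down to biliverdin, iron and carbon monoxide. It had 53.1 TPM (87 reads) in wild type, 122 (182 reads) in miR-26a KO, 154 (229 reads) in Cart-miR-23clus KO and 105 (168 reads) with the mimic. Its ratio to wild type was 2.30 (1.77 to 3.00) in miR-26a KO and 2.90 (2.26 to 3.75) in Cart-miR-23clus KO. Nqo1 (chromosome 8, 107388225 to 107403206) encodes a quinone reductase that uses NADPH or NADH. It had 22.8 TPM (37 reads) in wild type, 46.0 (68) in miR-26a KO, 54.3 (80) in Cart-miR-23clus KO and 49.3 (78) with the mimic. Its ratios were 2.02 (1.33 to 3.10) and 2.38 (1.59 to 3.62). For both genes wild type was the lowest library and Cart-miR-23clus KO the highest.

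The genes of glutathione synthesis and recycling, which include classical NRF2 targets, had 3 of 5 genes past the filter, of which 1 was called higher in miR-26a KO and 0 in Cart-miR-23clus KO against wild type. With 6.93% and 7.58% of all genes tested called higher, counts over 3 genes say little about the group. Slc7a11 (chromosome 3, 49892526 to 50443614), the cystine carrier that supplies cysteine for glutathione, had 11.9 TPM (30 reads) in wild type, 20.0 (46) in miR-26a KO, 8.71 (20) in Cart-miR-23clus KO and 11.0 (27) with the mimic. It was called higher in miR-26a KO, at 1.68 (1.04 to 2.76) of wild type, while Cart-miR-23clus KO was at 0.73 (0.40 to 1.34). Gclm, the modifier subunit of the rate-limiting glutamate-cysteine ligase, had 25 reads in wild type, 21 in miR-26a KO, 17 in Cart-miR-23clus KO and 33 with the mimic, and was called in no comparison. Gclc, the catalytic subunit, had 12 to 19 reads a library and was below the filter. Gss, glutathione synthetase and the best-read gene of this group, had 16.1, 21.4, 22.0 and 23.5 TPM in wild type, miR-26a KO, Cart-miR-23clus KO and mimic, with an interval of the ratio to wild type that holds 1 in both knockouts. Gsr, glutathione reductase, was below the filter with 22, 23, 10 and 24 reads in that order. At these read numbers differences larger than 1.5-fold could go undetected, since the interval of Gclm in miR-26a KO against wild type ran from 0.49 to 1.72 and that of Gss from 0.82 to 2.18.

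Among the 9 thioredoxin and peroxiredoxin genes, 0 were called higher in miR-26a KO and 1 (11.1%) in Cart-miR-23clus KO against wild type, near the 6.93% and 7.58% of all genes tested. Prdx5, a peroxiredoxin of mitochondria, peroxisomes and cytosol, had 156 TPM in wild type, 196 in miR-26a KO, 238 in Cart-miR-23clus KO and 185 with the mimic, and was called at 1.52 (1.31 to 1.77) in Cart-miR-23clus KO. Prdx1, the best-read gene of the group, had 578, 696, 767 and 723 TPM in the same order, with ratios of 1.20 (1.12 to 1.30) and 1.33 (1.24 to 1.43) to wild type. Txn1, thioredoxin, reached 1.41 (1.20 to 1.66) and 1.38 (1.17 to 1.62). The other 6 genes, Txnrd1, Srxn1, Prdx2, Prdx3, Prdx4 and Prdx6, had ratios of 0.86 to 1.03 in miR-26a KO and 0.88 to 1.03 in Cart-miR-23clus KO, with intervals that hold 1. Srxn1 and Txnrd1, which are known NRF2 targets, were thus among those that did not differ beyond counting error.

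All 5 glutathione peroxidases had ratios above 1 in both knockouts, as did 53.9% of all genes tested in miR-26a KO and 47.8% in Cart-miR-23clus KO. Gpx3 (chromosome 11, 54902453 to 54910377), the secreted form, had 1078 TPM (934 reads) in wild type, 1865 (1471) in miR-26a KO, 2602 (2047) in Cart-miR-23clus KO and 1986 (1676) with the mimic. Its ratio was 1.73 (1.59 to 1.88) in miR-26a KO and 2.41 (2.23 to 2.61) in Cart-miR-23clus KO, and these narrow intervals do not overlap. Gpx4, which reduces lipid hydroperoxides and restrains ferroptosis, had 45.7, 75.3, 76.7 and 52.5 TPM in wild type, miR-26a KO, Cart-miR-23clus KO and mimic. It was called at 1.65 (1.10 to 2.49) and 1.68 (1.12 to 2.54) on only 42 to 64 reads a library. A processed pseudogene of Gpx4 shares its sequence, and the sum of both had ratios of 1.60 (1.15 to 2.25) and 1.85 (1.34 to 2.57). Gpx1, the cytosolic form, was at 1.26 (1.13 to 1.42) and 1.34 (1.20 to 1.49). Gpx7 and Gpx8, forms of the endoplasmic reticulum, lay between 1.08 and 1.32.

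The extracellular superoxide dismutase Sod3 (chromosome 5, 52363791 to 52371418), which binds the matrix, showed the largest ratio of the 34 genes in miR-26a KO. It had 64.3 TPM (251 reads) in wild type, 168 (598) in miR-26a KO, 89.7 (318) in Cart-miR-23clus KO and 176 (671) with the mimic. Its ratio to wild type was 2.62 (2.25 to 3.04) in miR-26a KO and 1.39 (1.18 to 1.65) in Cart-miR-23clus KO. Both libraries of miR-26a -/- cells were therefore high, and the other 2 low. Sod1, the cytosolic enzyme, had 1625, 1802, 1973 and 1777 TPM in wild type, miR-26a KO, Cart-miR-23clus KO and mimic. Catalase (Cat) was at 1.21 (0.96 to 1.53) and 1.32 (1.05 to 1.65) of wild type in the knockouts.

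Of the 7 transferases, which conjugate glutathione to electrophiles, 3 passed the filter. Gstm1 had 90.6, 147, 122 and 133 TPM in wild type, miR-26a KO, Cart-miR-23clus KO and mimic, and was called higher in miR-26a KO at 1.62 (1.28 to 2.06). Gstm2 had 17.1, 15.8, 34.7 and 24.0 TPM in that order and was called higher in Cart-miR-23clus KO at 2.03 (1.13 to 3.75), on 19 and 35 reads. Gstm5, the best-read of the group, had 191, 191, 155 and 188 TPM and was not called. The 3 genes stand beside each other on chromosome 3 and are similar in sequence, so reads could be split between them by the mapping. Mgst1, a microsomal transferase, had 5, 14, 12 and 6 reads in wild type, miR-26a KO, Cart-miR-23clus KO and mimic and was below the filter. Mgst1 is also in the study's own list of candidate targets of the clusters. That list required a rise in the RNA of these samples and in protein measured by mass spectrometry.

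Ferritin, the iron store whose heavy and light chains are NRF2 targets that are also controlled at translation by iron, held the most abundant gene of the set. Fth1 (chromosome 19, 9980598 to 9985098), the heavy chain, had 3511 TPM (5480 reads) in wild type, 4837 (6875) in miR-26a KO, 7005 (9930) in Cart-miR-23clus KO and 5381 (8185) with the mimic. Its ratio was 2.00 (1.93 to 2.06) in Cart-miR-23clus KO and 1.38 (1.33 to 1.43) in miR-26a KO. Ftl1, the light chain, had 283, 257, 380 and 332 TPM in the same order, with ratios to wild type of 1.34 (1.15 to 1.58) in Cart-miR-23clus KO and 0.91 (0.76 to 1.08) in miR-26a KO. The heavy chain was thus called higher in Cart-miR-23clus KO and, with an interval above 1, stayed under the 1.5-fold limit in miR-26a KO, while the interval of the light chain lay above 1 in Cart-miR-23clus KO and held 1 in miR-26a KO.

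In the pentose phosphate pathway, which supplies the NADPH that glutathione and thioredoxin reductases use, all 4 genes passed the filter, and 0 were called in miR-26a KO and 1 in Cart-miR-23clus KO, where 6.93% and 7.58% of all genes tested were called higher. The called gene encodes the first enzyme. G6pdx (chromosome X, 74409483 to 74429194) encodes glucose-6-phosphate dehydrogenase. It had 20.6 TPM (57 reads) in wild type, 23.0 (58) in miR-26a KO, 46.1 (116) in Cart-miR-23clus KO and 20.4 (55) with the mimic. Its ratio was 2.24 (1.62 to 3.13) in Cart-miR-23clus KO and 1.12 (0.76 to 1.64) in miR-26a KO. Cart-miR-23clus KO was thus the single high library. Taldo1, the best-read gene here, had 189, 207, 176 and 202 TPM in wild type, miR-26a KO, Cart-miR-23clus KO and mimic, and Pgd and Tkt lay between 1.19 and 1.26 of wild type in the knockouts.

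**Figure D3:**
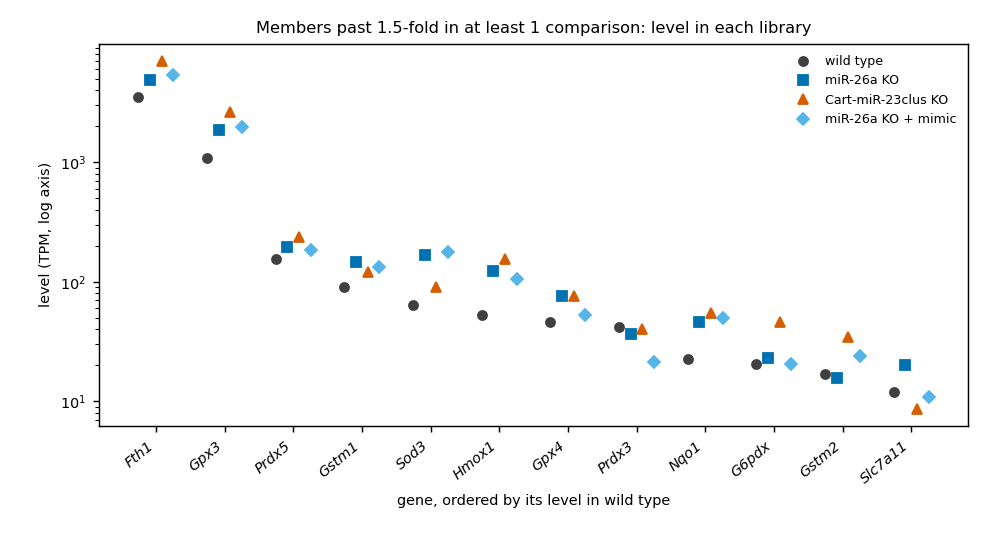
Level in TPM (log axis) of the 12 genes called in at least 1 of the 4 comparisons, with 1 point for each library. Fth1, Gpx3, Hmox1 and Nqo1 are lowest in wild type and highest in Cart-miR-23clus KO, Sod3 is high in both libraries of miR-26a -/- cells, and G6pdx is high only in Cart-miR-23clus KO.

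The mimic was compared with miR-26a KO to ask which of these genes followed miR-26a. There, 0 of the 34 genes were called higher and 2 lower, where 2.09% of all genes tested were called higher and 2.5% lower. The median log2 ratio of the 34 genes was 0.01, with 17 above 1, and that of all genes tested was -0.01, with 49.2% above 1. Slc7a11 was called lower, at 0.55 (0.33 to 0.90), on 27 reads against 46. Prdx3, a mitochondrial peroxiredoxin, was called lower at 0.59 (0.36 to 0.93), and its 4 libraries held 65 reads in wild type, 51 in miR-26a KO, 56 in Cart-miR-23clus KO and 32 with the mimic. Of the 7 genes that miR-26a KO had at a higher level than wild type, Slc7a11 was therefore the one called lower with the mimic. With a 99% interval or a fold of 2, neither Slc7a11 nor Prdx3 was called, and Slc7a11, with 123 summed reads, is left out where 200.0 are required. Both comparisons use the miR-26a KO library, so a high count there by chance would move both ratios. The ratios of the other 6 genes, with the mimic over miR-26a KO, were 0.86 (0.70 to 1.07) for Hmox1, 1.07 (0.76 to 1.51) for Nqo1, 1.06 (0.99 to 1.14) for Gpx3, 0.70 (0.47 to 1.03) for Gpx4, 1.05 (0.94 to 1.17) for Sod3 and 0.90 (0.73 to 1.12) for Gstm1. The reciprocal of the knockout's ratio to wild type, which a return to the wild-type level would give, lies outside the interval for Hmox1, Nqo1, Gpx3, Sod3 and Gstm1, and inside it for Gpx4.

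The mimic library was also set against wild type, a comparison added after the data had been seen. Of the 34 genes, 5 were called higher, where 6.32% of all genes tested were, and 1 lower, where 4.29% were. Hmox1 was at 1.98 (1.52 to 2.60), Nqo1 at 2.16 (1.44 to 3.29), Gpx3 at 1.84 (1.70 to 2.00), Sod3 at 2.74 (2.37 to 3.18) and Fth1 at 1.53 (1.48 to 1.59). Prdx3 was called lower, at 0.51 (0.32 to 0.78). The median log2 ratio of the 34 genes was 0.23, against 0.03 over all genes tested.

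The 2 knockouts were also compared directly, since a difference of each from wild type does not show that they differ. In Cart-miR-23clus KO against miR-26a KO, 2 genes were called higher (4.66% of all genes tested) and 2 lower (6.68%), and the median log2 ratio was 0.10 against -0.06 over all genes tested. G6pdx was higher at 2.01 (1.45 to 2.80) and Gstm2 at 2.19 (1.18 to 4.24). Sod3 was lower at 0.53 (0.46 to 0.61) and Slc7a11 at 0.44 (0.24 to 0.75). Gstm2 rests on 35 reads against 16 and is not called with a 99% interval, Sod3 is not called at a fold of 2, and Gstm2 and Slc7a11 are left out where 200.0 summed reads are required. Below the 1.5-fold limit, Fth1 was at 1.45 (1.40 to 1.49), Ftl1 at 1.48 (1.25 to 1.75) and Gpx3 at 1.40 (1.30 to 1.49), all with intervals above 1. Ftl1 passed the limit and was called higher when libraries were scaled by CPM (reads per 1000000 reads on genes), TMM or DESeq2 size factors, and it was at 1.60 (1.36 to 1.89) with the reads of its pseudogene Ftl1-ps2 added. Hmox1 was at 1.26 (1.03 to 1.54) and Nqo1 at 1.18 (0.84 to 1.65).

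**Figure D4:**
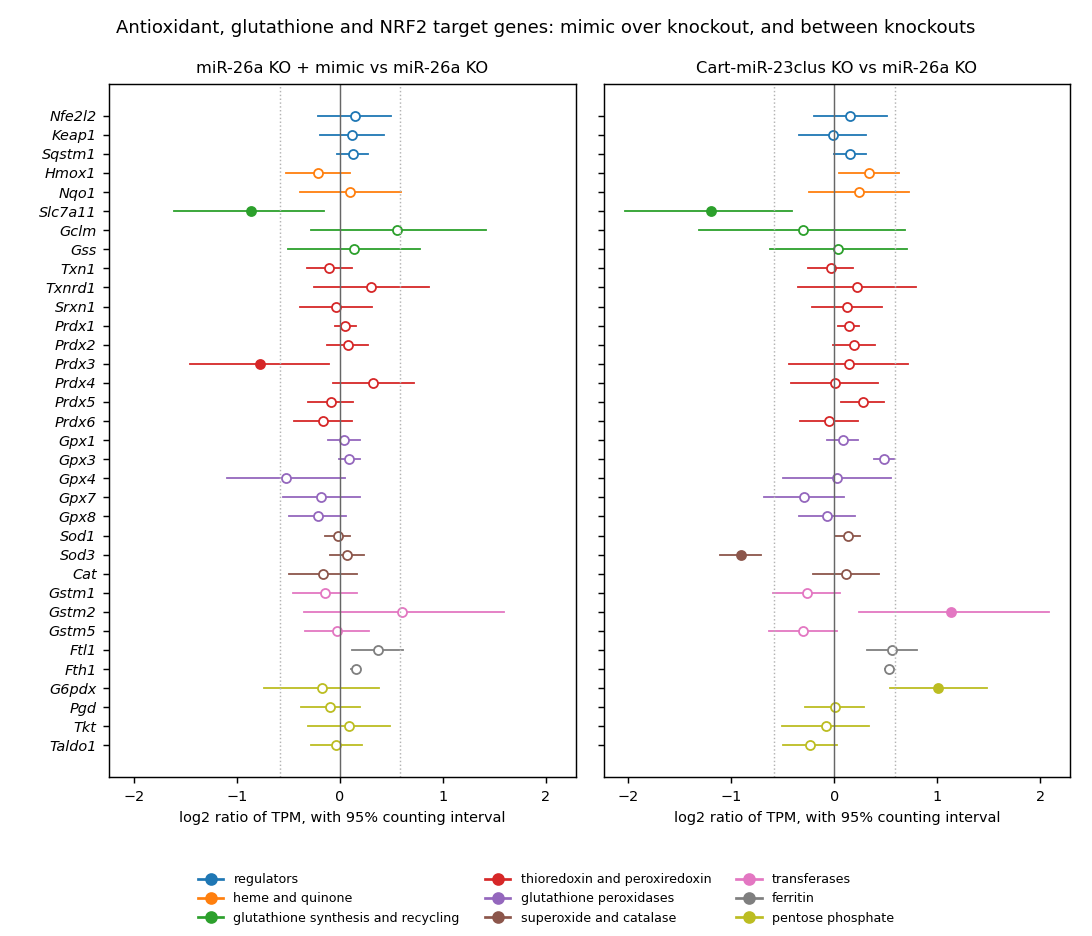
Log2 ratio of TPM for the 34 genes, with the mimic over miR-26a KO on the left and Cart-miR-23clus KO over miR-26a KO on the right. Bars are 95% counting intervals and filled points are called genes. Slc7a11 and Prdx3 are filled on the left, Slc7a11 and Sod3 are filled below 0 on the right, and Gstm2 and G6pdx are filled above 0 on the right.

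Seed matches for the microRNAs shown were sought in the longest annotated 3′ UTR of each gene (GENCODE M21, GRCm38), and a match is a description, not a site of action. The match to miR-26a-5p, TACTTGA on the mRNA strand, was in 4 of the 34 genes (11.8%) and in 12.5% of the 7282 tested genes with a UTR of at least 50 bases. The 4 genes and Mgst1, which was below the filter, each hold 1 match, shown here with the match in capitals because miR-26a differs by label between these libraries.
Slc7a11, chr3:50365020-50365044, minus strand: gtatattttTACTTGAaaatacttc
Gclm, chr3:122269157-122269181, plus strand: aatttgaacTACTTGAatttaaaca
Txnrd1, chr10:82896715-82896739, plus strand: tggctaatcTACTTGAactgcatcg
Gstm1, chr3:108012319-108012343, minus strand: gaaggtcaaTACTTGAgtgccagcc
Mgst1, chr6:138156262-138156286, plus strand: accattgctTACTTGActccccttc
The match in Slc7a11 begins at base 7267 of a UTR of 7364 bases. With the knockout over wild type first and the mimic over the knockout second, the ratios were 1.68 and 0.55 for Slc7a11, 1.62 and 0.90 for Gstm1, 0.92 and 1.47 for Gclm, and 0.89 and 1.23 for Txnrd1. Mgst1 was at 3.07 (1.05 to 10.9) and 0.40 (0.13 to 1.11), on 14 reads or fewer. Both ratios use the miR-26a KO library, which alone tends to set them in opposite directions, and the intervals of Gclm and Txnrd1 hold 1 in both comparisons, as does that of Gstm1 with the mimic. Over all genes tested with a UTR, the median log2 ratio of genes with a miR-26a match was 0.08 in the knockout against 0.03 without a match, and with the mimic -0.06 against 0.00294.

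For the clusters, the miR-23a match AATGTGA was in 3 of the 34 genes (Txnrd1, Cat, Slc7a11), the miR-27 match ACTGTGA in 4 (Gpx3, Gpx8, Slc7a11, Nfe2l2) and the miR-24 match CTGAGCC in 6 (Hmox1, Gpx3, Gstm5, Keap1, G6pdx, Pgd). The shares over all tested genes were 17.4%, 18.3% and 19.4%, against 8.82%, 11.8% and 17.6% of the 34 genes. Of the 8 genes called higher in Cart-miR-23clus KO, Hmox1, Gpx3 and G6pdx hold a match. Their miR-24 matches are shown because these genes were called, with the match in capitals.
Hmox1, chr8:75100284-75100308, plus strand: gcagctgttCTGAGCCcagtgccca
Gpx3, chr11:54910080-54910104, plus strand: aggaccctcCTGAGCCcccaagccc
Gpx3, chr11:54910214-54910238, plus strand: gggcctcccCTGAGCCcgtctgtgg
G6pdx, chrX:74409918-74409942, minus strand: tggccctatCTGAGCCacccatctt
The other 3 genes with a miR-24 match had ratios to wild type in Cart-miR-23clus KO of 0.81 (Gstm5), 1.18 (Keap1) and 1.23 (Pgd), and were not called. Over all genes tested with a UTR, the median log2 ratio there was -0.0168 with a miR-24 match and -0.0216 without. For miR-23a these medians were 0.0235 and -0.0286, and for miR-27 they were 0.00556 and -0.024. Nqo1, Prdx5, Gpx4, Gstm2 and Fth1 hold no match to these 3 seeds in the annotated UTR.

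The core of the antioxidant response element, TGACNNNGC, was sought on both strands of promoter windows of 300 bases, from 250 before to 50 after the start site (RefSeq, GRCm38.p6). Windows were present for 34 of the 40 genes, which are not the same 34 as those tested. It was in 10 of these 34 genes (29.4%) and in 14% of the 27025 genes with a window. The 10 were Gclm, Txnrd1, Srxn1, Prdx1, Sod1, Gstm5, Mgst1, Nfe2l2, G6pdx and Pgd. Of the 12 genes called in any of the 4 comparisons, G6pdx was the one with the core in its window, and Hmox1 and Sod3 had no window. The cores of G6pdx and of 3 known NRF2 targets are shown because their mRNAs differ in ratio, with the core in capitals as read on the strand of the gene.
G6pdx, chrX:74428913-74428953, minus strand: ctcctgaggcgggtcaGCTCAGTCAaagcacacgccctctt
Prdx1, chr4:116685450-116685490, plus strand: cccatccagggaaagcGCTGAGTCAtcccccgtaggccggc
Gclm, chr3:122245407-122245447, plus strand: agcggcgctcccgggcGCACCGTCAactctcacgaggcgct
Txnrd1, chr10:82859098-82859138, plus strand: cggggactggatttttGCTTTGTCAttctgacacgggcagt
All 4 lie on the opposite strand, where they read TGAC first. The core of Prdx1 overlaps a match to the AP-1 motif TGAGTCA or TGACTCA, and those of the other 3 do not. Beside these cores, the Cart-miR-23clus KO level relative to wild type was 2.24 for G6pdx, 1.33 for Prdx1, 0.75 for Gclm and 1.03 for Txnrd1.

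A list of 83 further genes of the same pathways, none of them among the 40, was read in the same way, and 56 passed the filter. In miR-26a KO against wild type, 3 were called higher (5.36%) and 2 lower (3.57%), where 6.93% and 4.55% of all genes tested were, so neither share exceeds that of all genes. These were Cbr3, a carbonyl reductase, at 1.92 (1.00 to 3.80), the selenoprotein Selenow at 1.89 (1.20 to 3.02), the exporter Abcc4 at 1.76 (1.31 to 2.38), the thioredoxin inhibitor Txnip at 0.52 (0.45 to 0.60) and the selenium carrier Selenop at 0.42 (0.26 to 0.66). In Cart-miR-23clus KO against wild type, 6 were called higher (10.7%) and 2 lower (3.57%), where 7.58% and 7.69% of all genes tested were. Those with the largest ratios were the transferase Gsto1 at 2.20 (1.72 to 2.84), the stress-induced sestrin Sesn2 at 2.04 (1.38 to 3.06), Oplah, which recycles oxoproline in the glutathione cycle, at 1.61 (1.09 to 2.41), the exporter Abcc1 at 0.61 (0.43 to 0.86) and Cul3, the ubiquitin ligase scaffold that works with KEAP1, at 0.47 (0.34 to 0.65). The median log2 ratio of the 56 genes was 0.09 and 0.07 in these comparisons. Without the fold limit, the interval lay wholly above 1 for 10 (17.9%) and wholly below 1 for 2 (3.57%) of them in miR-26a KO. The shares of all genes tested there were 12.7% and 9.05%. In Cart-miR-23clus KO it lay above for 8 (14.3%) and below for 10 (17.9%), where 12.9% and 13.6% of all genes tested were. With the mimic over miR-26a KO, 0 were called in either direction, where 2.09% and 2.5% of all genes tested were. In Cart-miR-23clus KO against miR-26a KO, 4 were called higher (7.14%) and 3 lower (5.36%), near the 4.66% and 6.68% of all genes tested, and the largest ratio was that of Selenop at 2.67 (1.70 to 4.33).

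Markers of other cell types also differed between the libraries. The 12 macrophage markers summed to 844 CPM in wild type, 288 in miR-26a KO, 978 in Cart-miR-23clus KO and 537 with the mimic, with Ptprc at 0 reads in miR-26a KO. The 9 osteoblast markers summed to 47230, 27170, 13830 and 28710 CPM in that order. In Cart-miR-23clus KO against wild type, 7 of the 8 tested were called lower. The 1 called higher was Spp1, at 1613 TPM against 773. The 6 adipocyte markers summed to 268 CPM in wild type, 131 in miR-26a KO, 642 in Cart-miR-23clus KO and 193 with the mimic. Of these, Adipoq had 9 reads or fewer in each library. The 10 cell cycle genes summed to 193 in wild type and to 474 to 485 in the other libraries. The 12 chondrocyte markers summed to 37690 in wild type and to 28370 to 28980 in the others, and the 5 fibroblast markers to 2134, 2721, 1737 and 2504. The fibroblast sum is mostly Dcn, at 1670, 2023, 1254 and 1799 TPM, whereas Prg4 was lowest in wild type, at 65.3, 219.5, 141 and 252.8 TPM. The erythroid markers were at 0 reads in every library, and the endothelial markers summed to 0 or 1 read in the 3 libraries with deposited counts, with Kdr at 0.166 TPM and the other 4 at 0 in the mimic library. Wild type thus had the highest osteoblast and chondrocyte sums and the lowest cell cycle sum of the 4 libraries, and the lowest levels of Hmox1, Nqo1, Gpx3 and Fth1. Fewer cells of a type and less RNA per cell cannot be told apart in such libraries, and the part of cell makeup or growth in the results above was not tested.

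**Figure D5:**
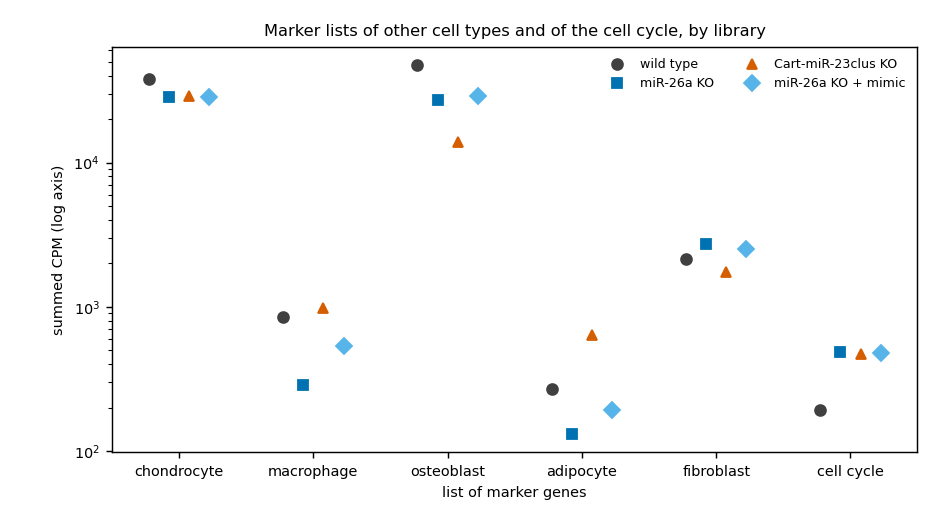
Summed CPM, reads per 1000000 reads on genes (log axis), of 6 marker lists, with 1 point for each library. Wild type is lowest for the cell cycle list (193 against 474 to 485), miR-26a KO is lowest for the macrophage list, and Cart-miR-23clus KO is lowest for the osteoblast list and highest for the adipocyte list.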

How the data were processed

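Libraries were made with the QuantSeq 3′ kit and sequenced by the authors, who mapped single-end reads to mm10 (GRCm38.p6 in the submitters' processing notes); the mapper and counter are not given in the sources used here. The authors deposited estimated counts of reads per gene for 3 libraries (whole numbers, not normalized) and TPM for all 4. TPM divides by gene length, although 3′ reads do not grow with it, so TPM levels of different genes compare only roughly. The mimic library has no deposited count here, so read numbers were worked back from the spacing of its deposited TPM values, where 14429 of 14429 values came out within 0.01 of a whole number (1449246 reads). A further 588 genes (816.8 TPM summed) had no read in the other libraries and could not be worked back, so they are not in that sum. Ratios of TPM, exact Clopper-Pearson intervals (scipy 1.17.1) and calls were computed for genes with at least 80 reads summed over 4 libraries. No test between conditions was possible. Scripts were tested on simulated data. Scaling by edgeR 4.0.16 and DESeq2 1.42.0 served as alternatives. UTRs came from GENCODE M21, and microRNAs and promoters from RefSeq. The members, the lists and the role groups were chosen with earlier results of these data known. Values in every library are given for genes called in a comparison, for the 3 regulators and for the best-read gene of each role group, and up to 5 further pathway genes are named per comparison.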

Additional observations from a re-analysis of the deposited data

Results flagged for a closer look

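Reads on copies of the genes described, outside the comparisons above, also differed. Ftl1-ps2, a processed pseudogene of Ftl1 (chromosome 10, 130592157 to 130592705, GRCm38), had 29 reads in Cart-miR-23clus KO and 0 in each of the other 3 libraries. Adding them to the 349 reads of Ftl1 gives 378 against 286 in wild type. Gpx4-ps2, a transcribed processed pseudogene of Gpx4 (chromosome 10, 45875291 to 45876086), had 42 reads in Cart-miR-23clus KO against 21 in wild type, with 29 in miR-26a KO and 36 with the mimic. Whether these reads come from the pseudogenes or from their parent genes was not tested.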

How the results depend on the processing

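No paired analysis was possible because a condition held 1 library, and no library could be left out of a comparison. Scaling by CPM, TMM or DESeq2 size factors moved no count by over 1.5 times and turned no median, but each of the 3 added Ftl1 to the genes higher in Cart-miR-23clus KO against miR-26a KO, for 3 in all. Raising the fold to 2 left 3 genes higher in miR-26a KO and 5 higher in Cart-miR-23clus KO against wild type, 0 lower with the mimic, and 1 lower in Cart-miR-23clus KO against miR-26a KO. An interval of 99% left 0 lower with the mimic and 1 higher between the knockouts. Requiring 200.0 reads left 1 lower with the mimic, and 1 higher and 1 lower between the knockouts. Without the 9 genes that have copies or genes of similar sequence, 5 were higher in each knockout against wild type and 1 between the knockouts. With the mimic library in place of miR-26a KO, 1 gene was lower than wild type. The median with the mimic, 0.01, became -0.030 with no filter and -0.022 at 200.0 reads. A change in the genes counted or a stricter limit accounts for the changes by construction, except for Ftl1, where the 3 scalings raise every log2 ratio of that comparison by 0.032 to 0.043, and for the replaced library, where the cause was not tested. Depth limits Gclm, Gstm2, Slc7a11, Nqo1, Gpx4, Prdx3, Gss and Txnrd1, which had at most 80 reads a library.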
